A study of Mus musculus with 16 samples.

Results

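Predicted mouse genes that carry a provisional name, Gm followed by a number, were followed here in the brain of 2 mouse models and their controls. The members were all symbols of that form with a mean of at least 5 CPM (reads of a gene scaled to a library of 1000000 reads counted in genes) over the 16 libraries, and 3 symbols that met this were left out. The rule kept 287 genes of the 15907 Gm symbols and of the 43472 symbols counted in all, and 5701 Gm symbols had at least 1 read. The members were thus chosen by their mean CPM over all libraries, and that they were detected is no finding. On the lower side of the limit were Gm10263 with a mean of 4.99 CPM, Gm13868 with 4.96 CPM and Gm6030 with 4.95 CPM. Just inside it were Gm340 with a mean of 5.003 CPM, Gm10704 with 5.02 CPM and Gm10501 with 5.06 CPM.

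The libraries were made from total RNA of mouse brain with Lexogen QuantSeq, a kit that primes on the poly(A) tail and reads the 3′ end of each transcript. Each of 2 models, the Prepl knockout and the PWS-IC deleted mouse, is represented by 4 mutant libraries and by 4 wild-type libraries of its own, which makes 4 groups. Prepl encodes a serine hydrolase related to prolyl endopeptidase, whose loss causes congenital myasthenic syndrome-22 in people, and PWS-IC is the imprinting centre that keeps the paternal copies of the Prader-Willi genes active. Strain, age, sex, the parent that passed on the deletion and whether a replicate is a separate mouse are not given in the labels, so each p-value measures the spread between these libraries, which may be technical.

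A Gm name is a placeholder given to a locus that was predicted from the genome or from cloned RNA before anything was known of its function. Many such loci are processed pseudogenes, copies of a spliced messenger RNA that was reverse transcribed and put back into the genome without introns, and genes with abundant transcripts, such as those of ribosomal proteins, have left the most. Others are stretches of mitochondrial DNA carried in a chromosome, long noncoding RNAs, small RNAs or coding genes not yet named. A read from a copy that differs little from the gene it came from can be placed at either locus, so a count at a recent copy is uncertain by its nature.

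The targeted genes followed the labels. Prepl had 34.8 ± 1.35 CPM (SD, n = 4) in its wild types and 1.64 ± 0.453 CPM in the knockouts. In the PWS-IC deleted mice Snrpn had 29.2 ± 4.95 CPM against 344 ± 14.5 CPM in their wild types, and Ndn had 4.30 ± 1.90 CPM against 556 ± 11.1 CPM. Reads counted in genes ran from 3477624 to 5852716 per library, and the smallest library was a PWS-IC deleted one. Xist and Y-linked reads marked 3 of the Prepl wild types as female and 1 as male, all 4 knockouts as male, and each of the other groups as 2 males and 2 females. The neuronal markers, 4 of 4 present, summed to between 1898 and 2316 CPM in every library.

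All 287 Gm genes had reads in all 16 libraries, and together they took between 0.884% and 1.25% of the reads in genes. Their summed share was 0.980% in the Prepl wild types, 1.03% in the knockouts, 1.16% in the wild types of the PWS-IC model and 1.19% in its deleted mice. A median member had a mean of 13.1 CPM, and 21 members reached 100 CPM. The 3 members with the most reads held 17.7% of all member reads, the leading 10 held 35.6% and the leading 50 held 67.8%. In 234 members the mean was at least 5 CPM in each of the 4 groups, whereas 53 were under that level in at least 1 group.

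By the GENCODE M21 annotation of the GRCm38 genome (mm10), 166 members were processed pseudogenes, 47 long noncoding RNAs, 24 protein coding genes, 13 pseudogenes of other kinds and 5 small RNAs. The other 32 had no single match there. Of these, 18 carry the older symbol of a gene that RefSeq now names, such as Gm15800 (Hectd4) and Gm608 (Usf3), and 12 were matched to nothing. Processed pseudogenes took 53.6% of the member reads, protein coding members 17.95%, long noncoding RNAs 11.8%, genes with no single match 6.88%, other pseudogenes 6.54% and small RNAs 3.17%.

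Most of the members were near-identical to another gene. In 166 of the 255 members with a GENCODE transcript, that transcript matched one of another gene at 95% identity or more over at least 80% of its length. Of these, 163 could be aligned to a named gene with a protein product or a mitochondrial gene, called its parent gene from here on, and the median number of differing bases was 4. There were 31 copies with 0 differing bases, 59 with 1 to 5, and 80 with 0 in the last 100 bases of the copy's annotated transcript. That end need not be where reads of this kit fall. Only aligned bases were compared, so gaps and unaligned ends count as no difference. The counts of 31 and 80 may therefore be too high for copies that cannot be told from their parent. Near-identity was judged against the closest gene, which need not be the parent. Parents were also assigned to members that are not near-identical. Counted at any identity, ribosomal protein genes were the parents of 69 members. With a match over at least 80% of the member's length, 30 parent genes had at least 2 members each, 71 members in all. Rps29, the gene of a protein of the small ribosomal subunit, led with 5 members, and Npm1, which encodes the nucleolar chaperone nucleophosmin, had 4.

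The sequences of the copies on which the results below turn are shown here beside their parent genes, so that bases in which they differ are visible. Each is a window of 60 bases on the transcript strand inside the parent's coding sequence, taken from the GENCODE M21 transcripts. Capitals mark the bases of a copy that differ from the parent. The window was the one with the most differing bases over the copies of its set, and was not chosen by where reads of this kit begin. Its count is therefore no measure of how far a whole copy differs. The first 2 pairs compare mitochondrial genes with copies in nuclear chromosomes. The window of mt-Nd3 lies at chrM:9459-9518 (plus strand), that of Gm28438 at chr1:24613060-24613119 (minus), that of mt-Nd2 at chrM:4686-4745 (plus) and that of Gm13339 at chr2:22590230-22590289 (minus).
mt-Nd3: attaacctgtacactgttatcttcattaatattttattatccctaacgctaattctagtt
Gm28438: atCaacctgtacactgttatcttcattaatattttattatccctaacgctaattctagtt
mt-Nd2: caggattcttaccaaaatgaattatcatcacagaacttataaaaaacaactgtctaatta
Gm13339: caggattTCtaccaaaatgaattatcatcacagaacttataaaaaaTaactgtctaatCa

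The next set holds copies of nuclear genes that rose in the PWS-IC deleted mice. The copies lie at chrX:141981320-141981379 (Gm6368, plus strand), chr1:55335663-55335722 (Gm8292, plus), chr13:54499786-54499845 (Gm2830, minus), chrX:66778697-66778756 (Gm14681, minus), chrX:87771609-87771668 (Gm14776, minus) and chr2:23202590-23202649 (Gm13423, plus). The Hsp90ab1 window is at chr17:45569551-45569610 (minus), and those of Rps24 and Npm1 cross exon joins.
Hsp90ab1: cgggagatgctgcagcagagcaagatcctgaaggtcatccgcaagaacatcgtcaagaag
Gm6368: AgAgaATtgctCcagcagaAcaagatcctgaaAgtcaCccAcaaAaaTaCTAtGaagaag
Rps24: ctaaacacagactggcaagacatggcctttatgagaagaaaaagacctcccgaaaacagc
Gm8292: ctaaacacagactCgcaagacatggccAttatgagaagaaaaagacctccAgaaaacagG
Gm2830: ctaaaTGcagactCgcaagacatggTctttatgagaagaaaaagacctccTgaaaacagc
Npm1: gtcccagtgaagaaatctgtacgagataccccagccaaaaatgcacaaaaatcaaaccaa
Gm14681: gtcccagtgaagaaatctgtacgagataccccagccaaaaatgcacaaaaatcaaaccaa
Gm14776: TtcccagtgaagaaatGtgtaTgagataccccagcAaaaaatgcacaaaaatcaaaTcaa
Gm13423: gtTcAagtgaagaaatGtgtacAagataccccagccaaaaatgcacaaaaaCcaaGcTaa
The windows range from 0 differing bases (Gm14681) to 15 (Gm6368), with 4 in Gm8292, 5 in Gm2830 and Gm14776 and 7 in Gm13423.

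The highest totals came mostly from copies of abundant transcripts. Gm8292, a processed pseudogene at 97.2% identity to Rps24, led with a mean of 669 CPM. Gm9844, annotated as protein coding and 99.1% identical to the actin-sequestering peptide gene Tmsb10, had 656 CPM. Gm10076, annotated as a long noncoding RNA and 99.5% identical to the ribosomal gene Rpl41, had 608 CPM. They were followed by Gm2000 (371 CPM, parent Rpl35), Gm28438 (312 CPM, parent mt-Nd3), Gm12346 (285 CPM, parent Hsp90aa1), Gm1673 (273 CPM) and Gm11942 (244 CPM, parent Rplp1). Gm1673, a coding gene at chr5:33983433-33985013, was the only one of these 8 with no alignment to another gene. These values are shares of reads and do not order the genes by transcript number, since they are not per length and a copy may take reads of its parent.

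The leading members of the other annotation classes took fewer reads. Gm10177 (121 CPM) is a transcribed copy of Sec61g, a subunit of the channel for secreted proteins. Of the antisense genes, Gm16536 (27.4 CPM) faces exons of the beta-secretase gene Bace1 and Gm2415 (19.5 CPM) faces those of Ctdspl, so reads of either partner could be counted here if strand was not used. Gm17066 (79.1 CPM) shares exon sequence with Rbm26 on the same strand, and the small RNA Gm27675 (76.7 CPM) lies in an exon of the imprinted gene Usp29. Gm10115 (17.7 CPM) and Gm29170 (15.2 CPM) lie in introns of Celf2 and Uchl5. The pseudogenes Gm10478 and Gm3608 had 13.4 and 13.2 CPM, Gm20712 had 11.1 CPM, the small nucleolar RNA Gm26205 inside Rpl6 had 9.75 CPM, Gm10654 had 7.31 CPM, the annotated microRNA Gm24276 had 6.74 CPM, and Gm9828 beside Btf3 had 5.32 CPM. None of these passed in either model by edgeR, and the nearest was Gm27675 in the PWS-IC comparison (0.44 ± 0.13, adjusted p = 0.0526).

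The first comparison asked which Gm genes differ between Prepl knockouts and their wild types. Both members that passed the test were higher in the knockouts, and both are nuclear copies of mitochondrial genes: Gm28661, a copy of mt-Co2, and Gm13339, a copy of mt-Nd2. They rose by 0.76 ± 0.12 and 0.77 ± 0.15 on the log2 scale (± SE), and no member fell. The other 7 nuclear copies of mitochondrial genes also had values above 0, without passing the test.

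In edgeR's quasi-likelihood test with Benjamini-Hochberg adjustment over all genes tested, called below at an adjusted p under 0.05, 2 of 287 members (0.697%) were called, beside 0.262% of the 13722 genes tested. By direction, 2 were higher, beside 0.189% of all genes, and 0 were lower, beside 0.0729%. At an unadjusted p under 0.05 there were 33 of 287 members, beside 1294 of the 13722 genes tested. The members' median difference was 0.09 log2 against 0.00 over all genes tested, with 186 of 287 above 0. In 13 members every knockout library was above every wild-type one, beside 1.6% of all genes tested, and in 4 every one was below, beside 4.09%.

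The mitochondrial copies lie in 2 blocks, both read on the minus strand. The first spans chr1:24611535-24616197, with 6 members over 4663 bases, and the second spans chr2:22587291-22590533 inside an intron of Myo3a, with 3 members over 3243 bases. Gm28661 (chr1:24614885-24615565) is a pseudogene of mt-Co2, the gene of subunit 2 of cytochrome c oxidase, and does not differ from it at any of its 681 bases. Its wild types had 24.8, 28.8, 28.6 and 31.8 CPM, and the knockouts had 48.1, 39.7, 40.2 and 60.6 CPM. The groups did not overlap (adjusted p = 0.00423, edgeR). Over the same libraries mt-Co2 itself rose by 0.50 ± 0.07 (adjusted p = 0.00157), from a mean of 3276 to 4511 CPM.

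Gm13339 (chr2:22590024-22590533) is 96.7% identical to mt-Nd2, the gene of a subunit of respiratory complex I. It had 25.6, 23.6, 34.1 and 25.3 CPM in the wild types and 30.6, 54.2, 52.8 and 42.9 CPM in the knockouts. The groups overlapped, since knockout library 1 lay below wild-type library 3 (adjusted p = 0.0262, edgeR). The call was lost without wild type replicate 2 (adjusted p = 0.137) or without knockout replicate 2, 3 or 4 (0.120, 0.129 and 0.0621). The difference of mt-Nd2 was 0.28 ± 0.08 and did not pass (adjusted p = 0.224). Gm28438, whose window is shown above and which took the most reads of the 9 copies, had 211, 209, 201 and 206 CPM in the wild types and 140, 266, 248 and 242 CPM in the knockouts. It overlapped between groups, with a difference of 0.15 ± 0.12 (adjusted p = 0.740).

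Summed over the 9 copies, the level was 488 ± 48.8 CPM in the Prepl wild types and 659 ± 66.2 CPM in the knockouts. The 22 mitochondrial genes counted summed to 105085 ± 7122 CPM in those wild types and 123108 ± 8989 CPM in the knockouts, with 18 of 22 above 0 and 6 called higher. Both sums had a higher mean in the knockouts. Those of the copies did not overlap (439 to 539 against 596 to 728 CPM), while those of the mitochondrial genes did (100635 to 115679 against 111202 to 132205 CPM). Among the copies Gm28437 varied widely, at 70.5, 155, 54.5 and 46.1 CPM in wild types and 204, 184, 70.8 and 145 CPM in knockouts. How far reads of mitochondrial RNA were placed at the copies was not tested. Cerebellar markers, 4 of 4 present, moved between these groups as well, at 80.01 to 105.0 CPM summed in wild types and 52.3 to 76.2 CPM in knockouts, with no overlap. Of these markers Gabra6 was at 0 in every knockout library. Their part in the result was not tested.

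Neither call held when sex was a term or when all libraries were fitted together. All knockout libraries were male and 3 of the 4 wild-type libraries female, so with sex as a term the contrast rests on 1 male wild-type library. Over all genes the calls went from 36 to 6 with sex as a term and to 18 in the fit of all 16 libraries. Why the calls were lost was not tested. With sex as a term Gm28661 was at 0.59 (adjusted p = 0.931) and Gm13339 at 0.86 (adjusted p = 0.773), and in 1 fit of all 16 libraries their adjusted p-values were 0.370 and 0.255. The number of members called was 10 (103 over all genes) on omitting wild type replicate 1 and 5 (51) on omitting wild type replicate 4. It was 1 (16) on omitting knockout replicate 2.

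Among the other copies of the 2 blocks, Gm28437 (identical to mt-Co3) was at 0.92 ± 0.26 in the knockouts (adjusted p = 0.200, edgeR). Gm29216 (mt-Co1) was at 0.58 ± 0.17 (adjusted p = 0.223) and Gm28439 (mt-Nd4) at 0.32 ± 0.18 (adjusted p = 0.605). Gm13341 (mt-Co2), Gm10925 (mt-Atp6) and Gm13340 (mt-Co1), named after their values were seen, were at 0.47 ± 0.12, 0.44 ± 0.13 and 0.37 ± 0.18, and none passed. Each of these 3 has a mitochondrial parent that codes for a subunit of cytochrome c oxidase or ATP synthase.

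**Figure D1:**
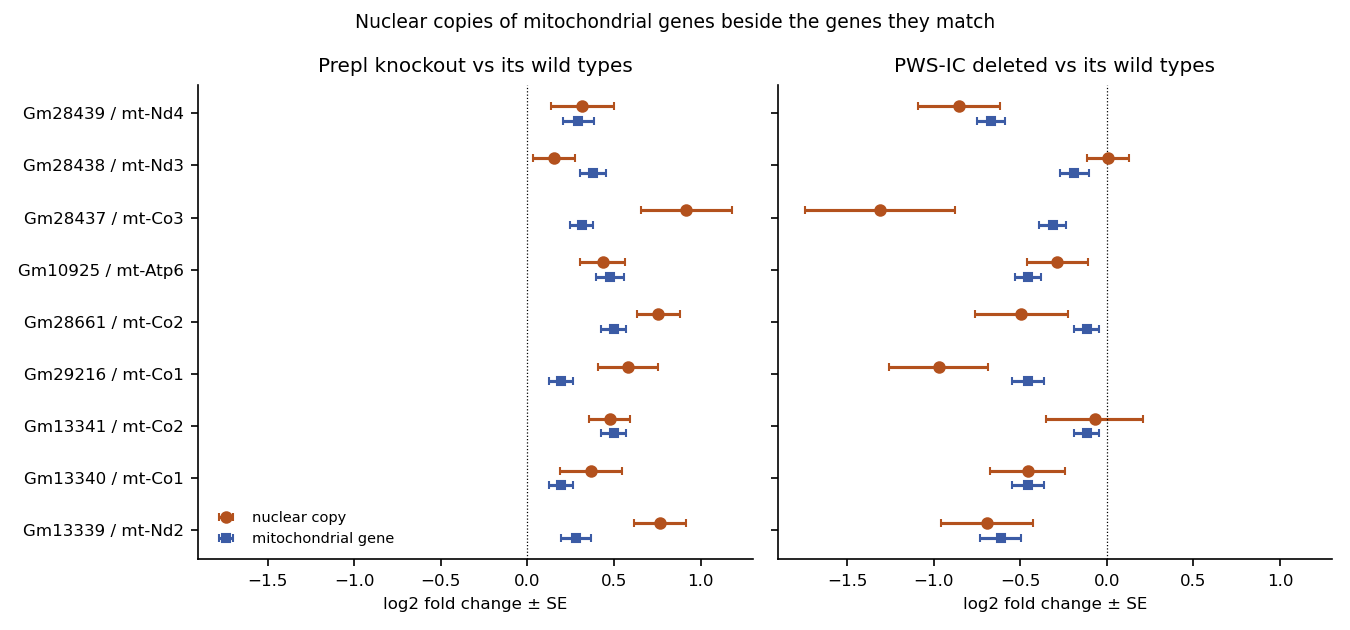
Log2 fold change of the 9 nuclear copies of mitochondrial genes (orange circles) and of the mitochondrial gene each matches (blue squares), with bars for ± 1 SE, in the Prepl knockout (left) and in the PWS-IC deletion (right), each against its own 4 wild types. The 9 copies lie above 0 on the left, and 8 of 9 lie below 0 on the right, where Gm28438 is at 0.01.

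The second comparison asked which Gm genes differ between PWS-IC deleted mice and their wild types. The test called 13 members higher and 3 lower. Copies of messenger RNAs for ribosomal proteins (Rps24, Rps27a, Rpl35, Rpl23a), of Npm1 and of the heat shock protein gene Hsp90ab1 were among those that rose. The processed pseudogene Gm15427, a copy of mt-Nd4 and a small nuclear RNA fell. The rises ran from 0.32 to 2.01 on the log2 scale and the falls from -0.85 to -0.70.

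The 16 called members are 5.59% of the 286 tested, beside 4.52% of the 13636 genes tested, so their share was near that of all genes. At an unadjusted p under 0.05 there were 71 of 286 members, beside 2483 of the 13636 genes tested. Split by direction, 4.55% of members were higher beside 2.96% of all genes, and 1.05% were lower beside 1.55%. The median difference of the members was 0.08 log2 against -0.01 over all genes, with 171 of 286 above 0. In 31 members every deleted library was above every wild-type one, beside 6.7% of all genes tested, and in 8 every one was below, beside 5.06%. Among the 343 Gm genes tested that had a mean under 5 CPM over the 16 libraries, 48 were called higher and 2 lower. These low genes were tested only if they passed the count filter in the 8 libraries of this model. That filter can favour low genes with reads mainly in 1 group, so their calls cannot be set beside those of the members. Among the 353 genes with a symbol ending in Rik at 5 CPM or more, 3 were higher and 6 lower.

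Of the 13 members that rose, 12 are processed pseudogenes, as are 166 of the 287 members. Near-identical copies were 10 of the 13, beside 166 of the 255 members with a GENCODE transcript. On the X chromosome, which holds 16 of the 287 members, lie 3 of them. Whether any class was over-represented was not tested. None of the 47 long noncoding RNAs passed in either model by edgeR, although their values reached 0.75 in the PWS-IC comparison and 0.84 in the Prepl one. Over all genes tested the called shares were only 4.52% and 0.262%, so the absence of calls among 47 genes says little. Levels of other cell types differed between the groups too. Red cell markers, 5 of 5 present, summed to 1796 to 3970 CPM in wild types and 1203 to 1629 CPM in deleted mice. Choroid plexus markers, 4 of 4, summed to 1319 to 2091 against 345 to 1629 CPM, and meningeal markers, 5 of 5, to 377 to 630 against 291 to 314 CPM, with none at 0. The share of all reads and alignments that lay outside genes was 12.3% in wild types and 19.1% in deleted mice. The part of these in the results was not tested, and in bulk tissue fewer cells of a type and less RNA per cell cannot be told apart.

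**Figure D2:**
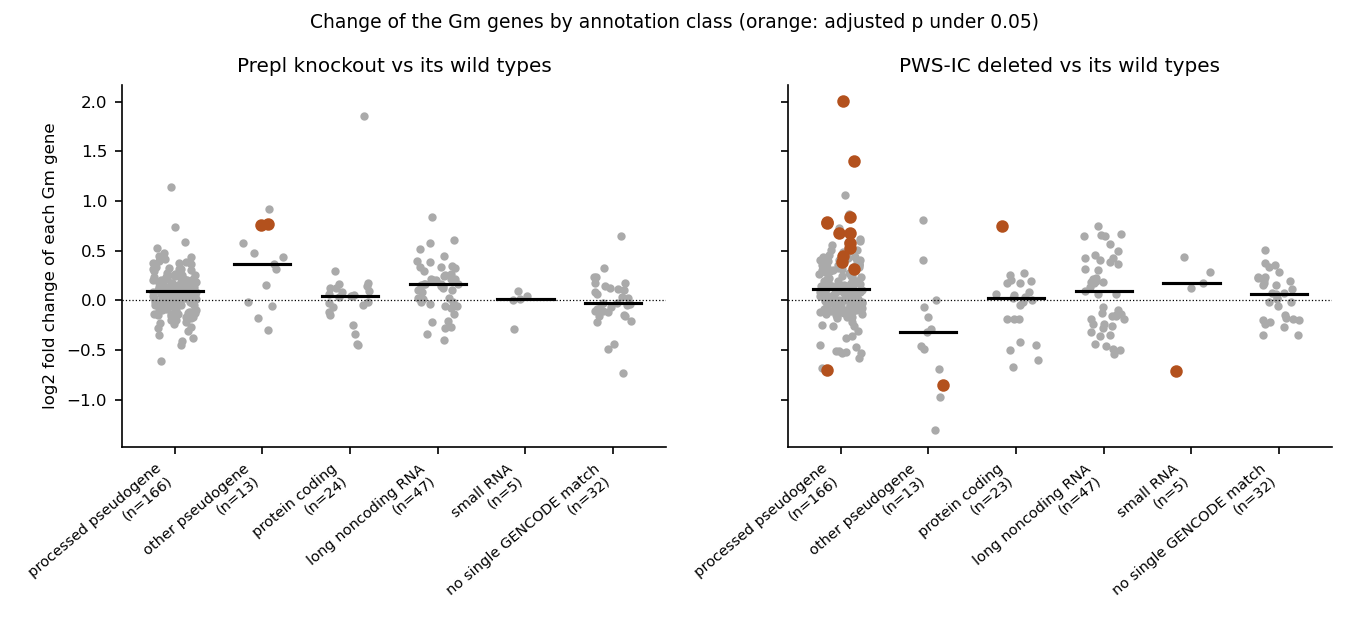
Log2 fold change of each Gm gene tested (points), by annotation class, in the Prepl knockout and the PWS-IC deletion, each against its own wild types. Horizontal lines are class medians and orange points passed the test. The called members of the PWS-IC comparison are mostly processed pseudogenes, 12 of 13 among those that rose, a class that holds 166 of the 287 members.

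Rps24, the gene of a protein of the small ribosomal subunit, has 2 copies that rose. Gm8292 (chr1:55335401-55335796, inside Boll) had 625, 554, 697 and 711 CPM in wild types and 789, 897, 865 and 801 CPM in deleted mice. All deleted libraries were above all wild-type libraries (0.38 ± 0.08, adjusted p = 0.0107, edgeR). Gm2830 (chr13:54499705-54500089, 96.1% identical) had 23.2, 20.6, 20.4 and 26.5 CPM in wild types and 30.8, 34.2, 32.8 and 36.6 CPM in deleted mice. It did not overlap between groups either (0.58 ± 0.13, adjusted p = 0.0135). Rps24 rose by 0.45 ± 0.09 (adjusted p = 0.00864). Without wild type replicate 3 Gm2830 lost its call (adjusted p = 0.0531).

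The other ribosomal copies that rose were Gm8430, Gm10269 and Gm10335. Gm8430 (chr6:122456904-122457374), which RefSeq names Rps27a-ps3 and which is 99.8% identical to the ubiquitin fusion gene Rps27a, had 204, 181, 212 and 209 CPM in wild types and 237, 264, 254 and 243 CPM in deleted mice. These groups did not overlap (0.32 ± 0.08, adjusted p = 0.0278, edgeR), and Rps27a differed by 0.42 ± 0.13 without passing (adjusted p = 0.0667). Omitting a single library ended the call in 6 of 8 cases, those without wild type replicates 2, 3 and 4 or deleted replicates 1, 2 and 3 (adjusted p from 0.0524 to 0.0740). Gm10269, a copy of Rpl35, had 21.7, 14.6, 25.1 and 25.5 CPM in wild types and 38.3, 42.6, 33.4 and 34.2 CPM in deleted mice. All 4 deleted libraries were higher (0.78 ± 0.16, adjusted p = 0.00602), and Rpl35 rose by 0.41 ± 0.10 (adjusted p = 0.0285). Gm10335 (chr10:14523078-14523545, inside Adgrg6), a copy of Rpl23a at 99.8% identity, had 21.9, 18.2, 16.4 and 22.3 CPM against 34.4, 33.7, 25.6 and 31.6 CPM. Again no deleted library fell among the wild types (0.68 ± 0.15, adjusted p = 0.0105), whereas Rpl23a was at -0.02 ± 0.08 (adjusted p = 0.928). Over all 69 members with a ribosomal protein parent, 5 were called higher (7.25%, beside 2.96% of all genes) and 1 lower (1.45%, beside 1.55%), with a median of 0.05 log2 against -0.01 over all genes. Of the 44 parent genes of these members, 9 (20.5%) were called higher and 1 (2.27%) lower.

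Gm15427, at chr1:95498621-95499151, was the processed pseudogene that fell. The wild types had 197, 194, 209 and 194 CPM and the deleted mice had 122, 128, 114 and 121 CPM. No value of one group reached the other, and the fall of 0.70 ± 0.08 log2 had the smallest adjusted p of any member (4.12e-05, edgeR). In the Prepl model Gm15427 was at -0.09 ± 0.08 (adjusted p = 0.778).

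The 3 processed pseudogenes of Npm1 that rose differ in how close they are to it. Nucleophosmin shuttles between nucleolus and cytoplasm and helps to assemble ribosomes. Gm14681 (chrX:66778442-66778852, 97.4% identical) had 11.6, 9.09, 8.92 and 10.9 CPM in wild types and 19.7, 15.96, 16.4 and 17.6 CPM in deleted mice. The groups did not overlap (0.79 ± 0.17, adjusted p = 0.0118, edgeR). Gm13423 (chr2:23202033-23203683, 80.2% identical) had 2.39, 1.14, 2.73 and 1.33 CPM against 7.94, 4.56, 11.8 and 7.07 CPM. It had the largest rise of any called member, 2.01 ± 0.35 (adjusted p = 0.00212), again with no overlap. Gm14776 (chrX:87771339-87772352, in an intron of Il1rapl1, 83.0% identical) had 1.71, 3.03, 1.27 and 1.71 CPM against 6.50, 2.28, 5.18 and 6.38 CPM. Deleted library 2 lay below wild-type library 2 (1.40 ± 0.38, adjusted p = 0.0381), and the call was kept only without wild type replicate 2 or deleted replicate 2, with adjusted p from 0.0727 to 0.122 when any of the other 6 libraries was omitted. The remaining copy, Gm5611 (94.98% identical, named after its values were seen), was at 0.24 ± 0.20 (adjusted p = 0.568), and Npm1 rose by 0.32 ± 0.09 (adjusted p = 0.0479).

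The wild types of the PWS-IC model had lower levels than the Prepl wild types for 4 of the members that rose, among them the 2 with the largest rises. For 3 others that rose (Gm8292, Gm2830 and Gm8430) the PWS-IC wild types were called higher, so 7 of the 13 were apart, in both directions. Of the members that fell, 1 (Gm22710) was called higher in the PWS-IC wild types and 1 (Gm15427) lower. In the Prepl wild types Gm14776 had 10.8 ± 1.40 CPM, against 1.93 ± 0.760 CPM in the PWS-IC wild types, and Gm13423 had 5.26 ± 2.20 CPM, against 1.90 ± 0.783 CPM. The deleted mice, at 5.08 ± 1.96 and 7.84 ± 3.00 CPM, were compared with those low wild types only. Gm12350 had 42.2 ± 5.32 CPM in the Prepl wild types, 28.1 ± 3.44 CPM in the PWS-IC wild types and 44.6 ± 3.77 CPM in the deleted mice. For Gm6368 the same groups had 56.3 ± 5.42, 38.2 ± 5.26 and 68.2 ± 7.32 CPM. Between the 2 sets of wild types the differences were -2.43 ± 0.27 for Gm14776 (adjusted p = 1.25e-07, edgeR), -1.40 ± 0.36 for Gm13423 (adjusted p = 0.00445), -0.54 ± 0.12 for Gm12350 (adjusted p = 0.00105) and -0.51 ± 0.11 for Gm6368 (adjusted p = 0.000787). The PWS-IC wild types serve in both contrasts. Gm14776 and Gm13423 had a mean under 5 CPM in at least 1 group, so they passed the rule through the groups in which they were higher. Of the 234 members at 5 CPM or more in every group, 11 were called higher and 3 lower, which is 5.98% beside 4.52% of all genes tested and thus near that share.

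Gm6368 (chrX:141980175-141982321) is a processed pseudogene of Hsp90ab1, the constitutive cytosolic HSP90 chaperone, at 90.8% identity. It had 42.2, 34.1, 43.3 and 33.3 CPM in wild types and 78.2, 68.6, 61.2 and 64.7 CPM in deleted mice. The lowest deleted library was well above the highest wild-type one (0.84 ± 0.12, adjusted p = 0.000334, edgeR). Hsp90ab1 rose by 0.50 ± 0.06 (adjusted p = 0.000115), from a mean of 2327 to 3278 CPM. The window shown for Gm6368 has 15 differing bases, but Gm13423 and Gm14776 are less identical to their parent over the whole match.

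Further copies that rose were Gm15773, Gm12350, Gm7324 and Gm9892. Gm15773 (chr7:12603196-12604643), a copy of the chromatin-binding factor gene Psip1, had 62.2, 64.6, 65.2 and 67.8 CPM in wild types and 95.8, 94.2, 84.3 and 96.5 CPM in deleted mice. It did not overlap (0.52 ± 0.09, adjusted p = 0.00206, edgeR), and Psip1 rose by 0.48 ± 0.08 (adjusted p = 0.00143). Gm12350 (chr4:34485832-34486293), a copy of Chchd2, a protein of the mitochondrial intermembrane space, had 23.1, 30.3, 30.4 and 28.6 CPM against 41.4, 43.1, 44.0 and 50.04 CPM. These groups were apart (0.68 ± 0.12, adjusted p = 0.00275), while Chchd2 was at 0.12 ± 0.08 (adjusted p = 0.471). Gm7324 (chr14:43697828-43715378), a coding gene 99.6% identical to the RNA-binding protein gene Rbmxl1, had 13.8, 11.5, 12.6 and 16.8 CPM against 24.1, 23.7, 23.6 and 20.2 CPM. It too was higher in all 4 deleted libraries (0.75 ± 0.16, adjusted p = 0.00952), with Rbmxl1 at -0.27 ± 0.20 (adjusted p = 0.508). Its exons overlap those of Gm17208, so reads there could belong to either. Gm9892 (chr8:52196065-52197056), a copy of the translation initiation factor gene Eif2s2, had 49.0, 44.9, 49.9 and 62.4 CPM against 68.3, 61.6, 69.3 and 79.0 CPM. Wild-type library 4 lay just above deleted library 2 (0.44 ± 0.11, adjusted p = 0.0278), and Eif2s2 was at 0.21 ± 0.08 (adjusted p = 0.152). Without wild type replicate 1, 2 or 3 or deleted replicate 1 or 4 its adjusted p was between 0.0551 and 0.0881.

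**Figure D3:**
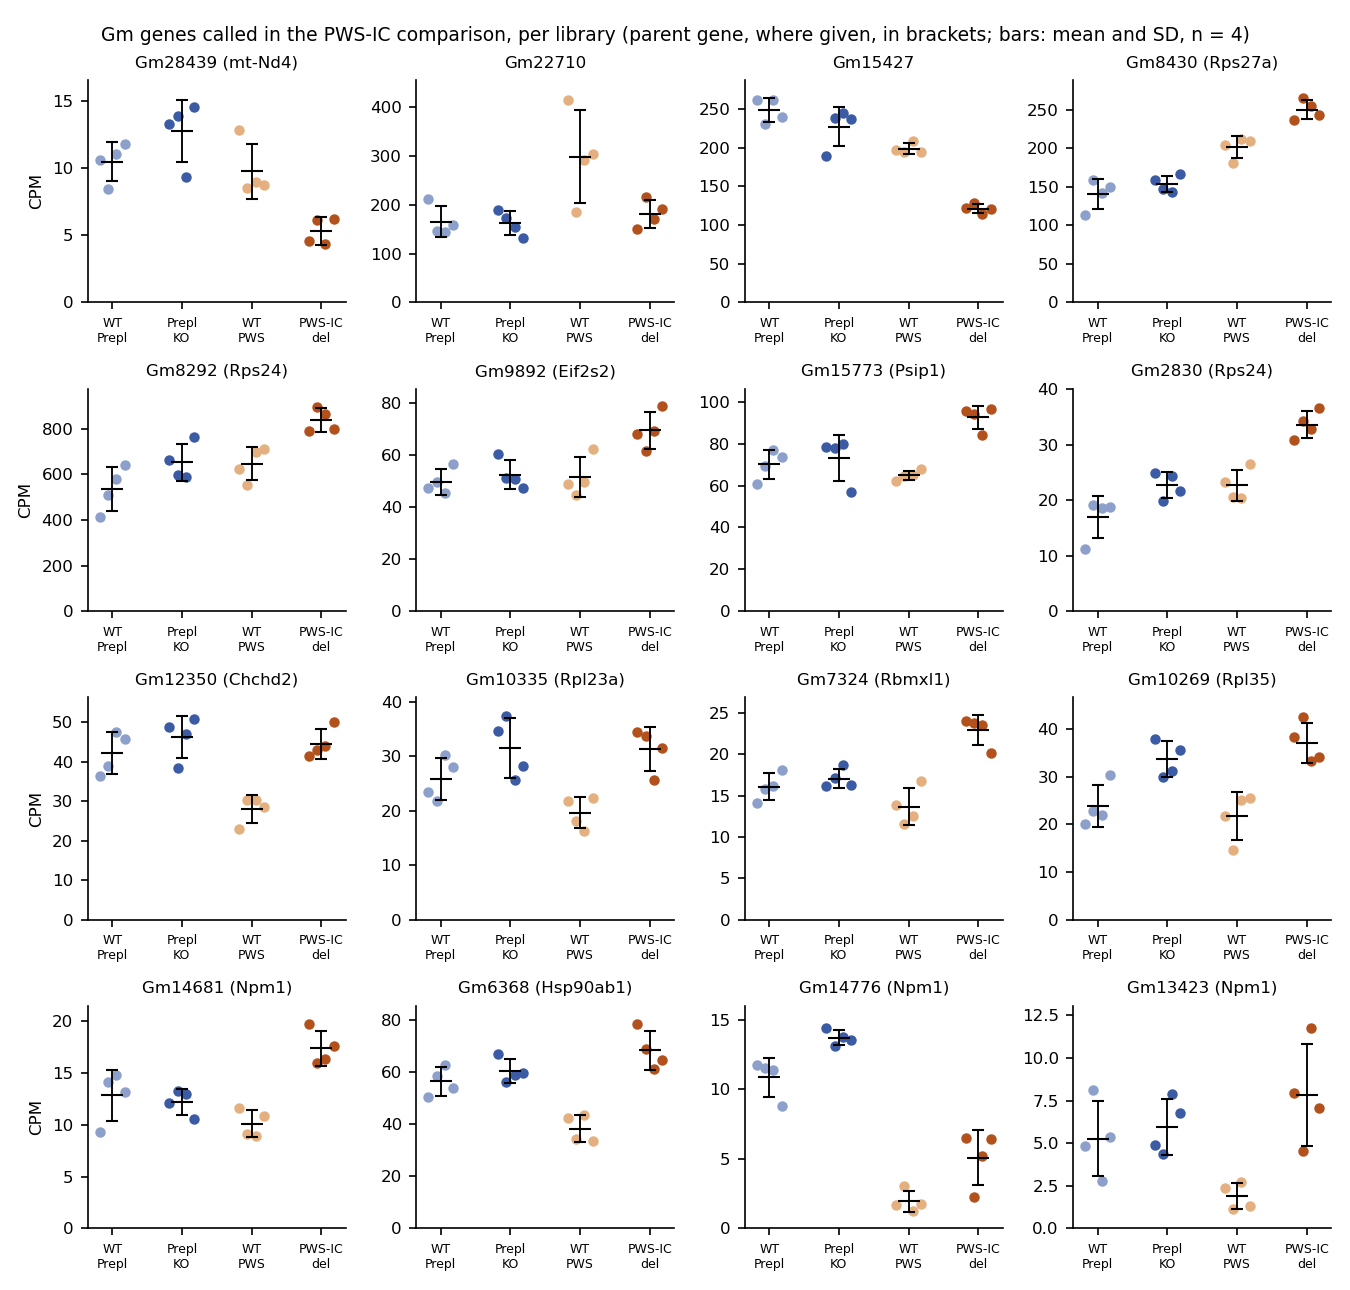
CPM of the 16 Gm genes called in the PWS-IC comparison, per library in all 4 groups, with bars for mean and SD (n = 4 each). Gm15427 lies at 194 to 209 CPM in wild types and 114 to 128 CPM in deleted mice, and Gm14776, Gm9892 and Gm22710 are the called members whose groups overlap.

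The 2 other falls were in Gm28439 and Gm22710. Gm28439 (chr1:24611535-24612410), identical to part of mt-Nd4, had 12.8, 8.52, 8.92 and 8.76 CPM in wild types and 4.57, 6.16, 4.31 and 6.21 CPM in deleted mice. No deleted library reached the lowest wild-type one (-0.85 ± 0.24, adjusted p = 0.0436, edgeR), and the call held only without wild type replicate 2, with adjusted p from 0.0579 to 0.149 when any of the other 7 libraries was omitted. mt-Nd4 fell by 0.67 ± 0.08 (adjusted p = 4.98e-05). Gm22710 (chr1:118459141-118459265), annotated as a small nuclear RNA, had 415, 185, 291 and 303 CPM in wild types and 149, 216, 170 and 190 CPM in deleted mice. Its groups overlapped, since wild-type library 2 lay below deleted libraries 2 and 4 (-0.71 ± 0.16, adjusted p = 0.0151). Without wild type replicate 1 or deleted replicate 1 or 3 the adjusted p was 0.0541, 0.0597 and 0.0517. It sits inside an exon of the noncoding gene 2900060B14Rik on the same strand, so reads there could belong to either. Summed over the 9 mitochondrial copies, the level was 835 ± 228 CPM in PWS-IC wild types and 671 ± 73.7 CPM in the deleted mice. These sums overlapped, at 599 to 1080 CPM against 560 to 711 CPM. Within them Gm28437 varied widely, at 324, 52.6, 57.0 and 290 CPM in wild types and 50.5, 64.7, 48.3 and 123 CPM in deleted mice. The 22 mitochondrial genes went from 115790 ± 6070 to 88872 ± 4998 CPM, with 12 called lower and 0 higher by edgeR.

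No member lies within Prepl or between Ube3a and Peg12 in the Prader-Willi region. The nearest to that region is Gm5898 (chr7:63542479-63544549, named after its values were seen), a copy of Thrap3 at a distance of 1.078 Mb. It had 21.02, 20.6, 21.7 and 20.6 CPM in wild types and 27.2, 22.8, 25.9 and 31.4 CPM in deleted mice. The groups did not overlap, but the difference of 0.37 ± 0.14 did not pass (adjusted p = 0.141, edgeR). Nearest to Prepl was Gm6741, 6.147 Mb away, at 0.16 ± 0.20 in the knockouts (adjusted p = 0.862).

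Copies and parents were set side by side for the 157 near-identical copies whose parent gene was tested. In the Prepl comparison their log2 differences had a Pearson r of 0.45 and a Spearman rho of 0.44 across genes, with the same sign in 107 pairs. The PWS-IC comparison gave r = 0.46 and rho = 0.46, with the same sign in 104 pairs. Of the 12 called copies among these in the PWS-IC comparison, 10 had a parent on the same side and 7 had a parent that was called as well. Genes are not independent replicates, each pair shares its libraries, and reads can be exchanged between a copy and its parent, so these are descriptions only.

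**Figure D4:**
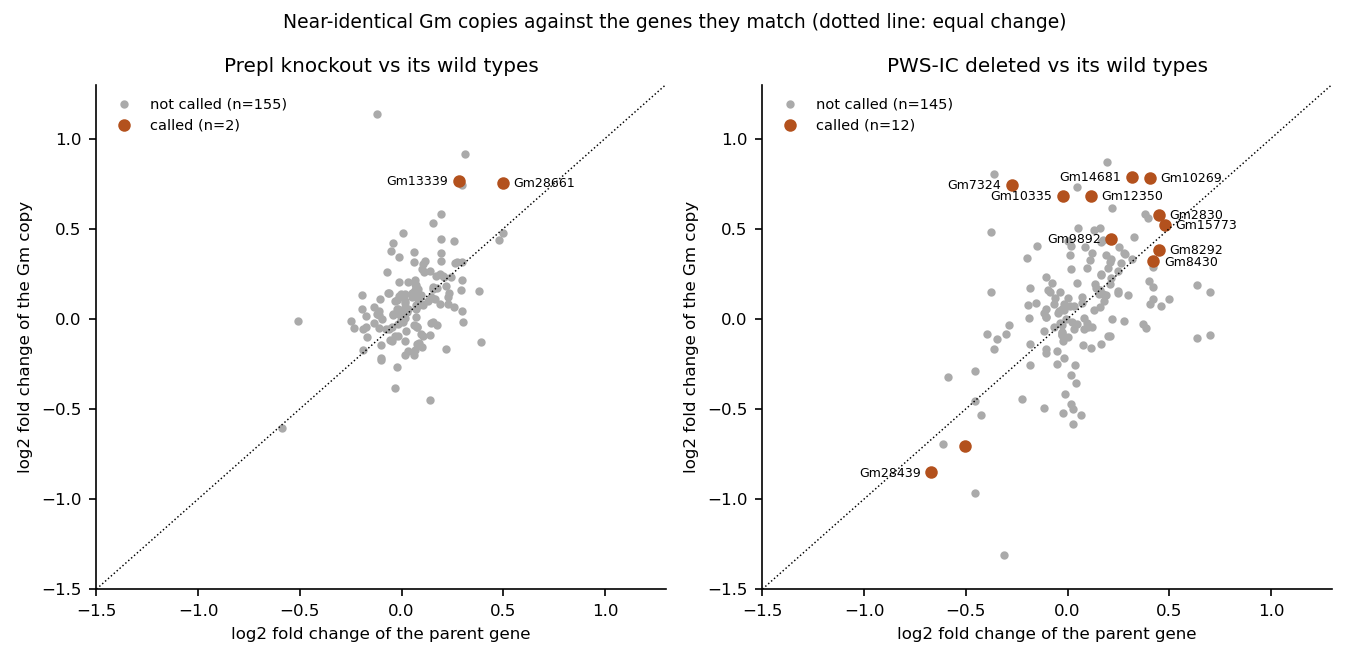
Log2 fold change of each of the 157 near-identical copies (vertical) against that of its parent gene (horizontal), in the Prepl comparison and the PWS-IC comparison; orange points are copies called by the test. Gm10335 and Gm12350 lie high at a parent value near 0, and Gm28439 lies low with mt-Nd4.

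The difference between the effects of the 2 models was tested in 1 fit of all 16 libraries, as the PWS-IC effect minus the Prepl effect. It was called in 6 of 287 members (2.09%), beside 0.778% of the 14392 genes tested, with 1 above 0, beside 0.292% of all genes, and 5 below, beside 0.486%. Gm6368 was above 0 (0.71 ± 0.15, adjusted p = 0.0131, edgeR), with Prepl libraries between 50.2 and 66.8 CPM whatever their genotype. Gm15427 was below 0 (-0.61 ± 0.12, adjusted p = 0.00649). The mitochondrial copies Gm13339 (-1.45 ± 0.33), Gm29216 (-1.55 ± 0.34) and Gm28439 (-1.16 ± 0.29) were below 0 as well, each with its Prepl value above 0 and its PWS-IC value below. Gm10039 (chr11:100361716-100362126), a copy of the ATP synthase gene Atp5g1 at 99.8% identity, had 14.1, 8.61, 11.2 and 8.38 CPM in the Prepl wild types and 13.2, 34.9, 30.1 and 11.5 CPM in the knockouts. Its 2 high knockout libraries set it apart, and the other 2 lay within the range of the wild types. In the PWS-IC deleted mice it had 6.28 ± 1.40 CPM against 9.01 ± 1.60 CPM, and the difference of effects was -1.67 ± 0.41 (adjusted p = 0.0414). Of the 6, Gm15427 and Gm6368 kept their calls whichever of the 16 libraries was omitted, and Gm13339, Gm29216, Gm28439 and Gm10039 lost theirs in 5, 5, 13 and 10 of those fits. The adjusted p in the fits that lost a call ran from 0.0507 to 0.0776 for Gm13339, 0.0515 to 0.0590 for Gm29216, 0.0515 to 0.122 for Gm28439 and 0.0561 to 0.116 for Gm10039.

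The 2 sets of wild types differed from each other in many more members than either mutant did from its controls. Of 287 members, 89 (31.0%) were called, beside 24.4% of all genes tested, with 56 higher in the PWS-IC wild types (beside 12.3%) and 33 lower (beside 12.1%). Among the 234 members at 5 CPM or more in every group, 51 were called higher (21.8%) and 19 lower (8.12%). The other 53, with 5 called higher and 14 lower, passed the rule through the groups in which they were higher, so their calls are no support. In 44 members every PWS-IC wild-type library was above every Prepl one, beside 9.7% of all genes tested, and in 30 every one was below, beside 14.6%. Members with a ribosomal protein parent were called higher 31 times (44.9%, beside 12.3% of all genes) and lower 4 times (5.8%, beside 12.1%) among 69. The sets were separate control groups, and colony, sex ratio and library preparation cannot be told apart in this contrast. Markers of other cell types moved with it. Red cell markers, 5 of 5 present, summed to 660 to 1145 CPM in the Prepl wild types and 1796 to 3970 CPM in the PWS-IC wild types. Oligodendrocyte markers, 4 of 4, summed to 97.9 to 164 against 65.3 to 72.1 CPM, with Mog at 0 in every library of the second set. The share of reads and alignments outside genes was 17.0% against 12.3%. The part of these in the 89 calls was not tested. It shares its wild types with the mutant comparisons.

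Among those lower in the PWS-IC wild types, Gm15920 stood apart. It is a copy of Ndufa12, an accessory subunit of complex I, lies at chr5:130188395-130188796 inside Rabgef1, and RefSeq names it Ndufa12-ps. The Prepl wild types had 8.40, 30.1, 56.4 and 68.6 CPM and the PWS-IC wild types had 4.10, 6.06, 5.28 and 5.71 CPM. All were lower in the second set, and within the first the values spread widely (-2.91 ± 0.37, adjusted p = 9.98e-07, edgeR). Ndufa12 itself was higher in the second set (0.91 ± 0.22, adjusted p = 0.00302), with a mean of 126 against 69.8 CPM. Gm6166, a copy of the fatty acid binding protein gene Fabp5, had 23.4, 24.3, 23.5 and 50.3 CPM against 11.4, 4.92, 8.01 and 7.996 CPM. The sets did not overlap (-1.85 ± 0.23, adjusted p = 7.01e-07), and Fabp5 was at -0.08 ± 0.09 (adjusted p = 0.559).

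Gm26384 (chr17:21284103-21284212) was the member with the smallest p on the higher side. Annotated as a microRNA, its transcript is 98.2% identical to part of the elongation factor gene Eef1a1. It had 14.8, 25.7, 27.9 and 24.8 CPM in the Prepl wild types and 75.5, 75.2, 68.1 and 60.7 CPM in the PWS-IC wild types. The sets were far apart (1.62 ± 0.14, adjusted p = 8.29e-10, edgeR), while Eef1a1 was lower in the second (-0.64 ± 0.11, adjusted p = 5.38e-05). Gm5805, a copy of Rps14, had 49.3, 56.2, 58.5 and 56.6 CPM against 110, 91.6, 106 and 109 CPM. It moved on the same side as its parent, at 0.97 ± 0.10 for the copy (adjusted p = 3.43e-08) and 0.83 ± 0.08 for Rps14 (adjusted p = 1.60e-08). The other members with the smallest p on this side were Gm28438 (1.03 ± 0.14), Gm10443 (0.71 ± 0.08, a copy identical to Rps28) and Gm10480 (0.69 ± 0.09, not matched). On the lower side were Gm21092 (-1.20 ± 0.18), Gm11808 (-0.99 ± 0.17) and Gm14776, described above (-2.43 ± 0.27). Over the 157 pairs of copy and parent this contrast gave r = -0.02 and rho = 0.17 across genes, with the same sign in 103 pairs.

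Of the 47 long noncoding RNAs, 5 were called higher and 9 lower between the wild types, which is 29.8% beside 24.4% of all genes tested and thus near that share. Gm26871 (chr3:118430324-118530022) is the host transcript of Mir137, a microRNA enriched in neurons. It had 30.3, 31.7, 30.5 and 31.4 CPM in the Prepl wild types and 15.5, 15.9, 21.8 and 16.6 CPM in the PWS-IC wild types. The sets did not overlap (-0.78 ± 0.15, adjusted p = 0.000199, edgeR). Gm3764 (chr3:88206813-88229959), whose locus spans Mir9-1, another microRNA of neural cells, had 111, 81.3, 78.8 and 73.9 CPM against 55.9, 50.4, 53.5 and 60.2 CPM. It too was lower in the second set (-0.60 ± 0.11, adjusted p = 0.000182). In the deleted mice Gm26871 was at 0.43 ± 0.18 and Gm3764 at 0.18 ± 0.11 against their own wild types, and neither passed (adjusted p = 0.201 and 0.434).

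**Figure D5:**
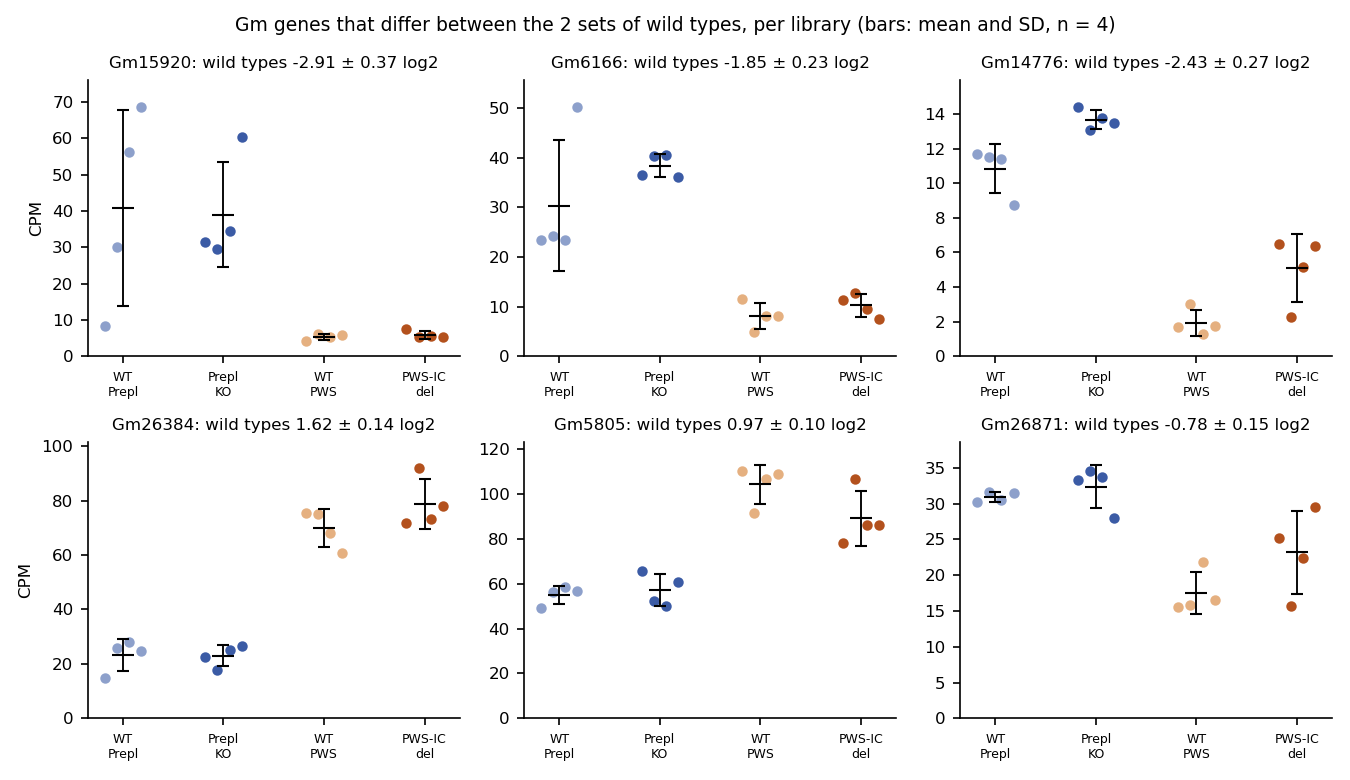
CPM per library of 6 Gm genes that differ between the 2 sets of wild types, in all 4 groups, with bars for mean and SD (n = 4 each). Gm15920, Gm6166 and Gm14776 are low in both PWS-IC groups, and Gm26384 is high in both, at 60.7 to 91.9 CPM against 14.8 to 27.9 CPM.

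A further member, Gm10800, was named after its values were seen. It is a coding gene at chr2:98666547-98667301 whose closest match is Gm10721. The Prepl wild types had 0.442, 0.517, 5.17 and 10.3 CPM, and the knockouts had 21.2, 14.3, 12.3 and 11.1 CPM. All knockout libraries were above all wild-type libraries, but the wild types spread widely and the difference of 1.85 ± 0.42 missed the threshold (adjusted p = 0.0644, edgeR). Between the sets of wild types it was among the 33 called lower (-1.53 ± 0.57, adjusted p = 0.0496). That call held in 3 of 16 fits with a single library omitted, and the value was -0.58 without Prepl wild type replicate 4. It was too low to be tested in the PWS-IC comparison, with 1.37 ± 0.404 CPM in the wild types and 0.724 ± 0.407 CPM in the deleted mice.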

How the data were processed

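RNA of 16 mouse brain libraries was counted per gene. The authors deposited raw read counts per gene symbol, made with HISAT2 and HTSeq on mm10, per the submitters' processing notes; the sources used here do not state versions, annotation release, strand setting or how reads with several alignments were treated. The 5 HTSeq summary rows were left out of library sizes; per library 11.4% to 20.1% of all reads and alignments counted lay outside genes and 25.2% to 30.9% were not unique. Members and lists were chosen with earlier results of these data known, and 3 symbols and some parent genes are not reported here. Counts were tested with edgeR 4.0.16 (R 4.3.3): filterByExpr (minimum count 10, total 15), TMM, quasi-likelihood, Benjamini-Hochberg over all genes tested, each model on its own 8 libraries, and 1 fit of 16 for the difference of effects and the wild types. SE is the log2 fold change divided by the root of F. The procedure was tested on simulated data. Groups of 4 libraries limit the precision.

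Named are the called members (the 15 with the smallest p per direction at most), the 8 with the highest mean, the leading 2 of each annotation class, the 3 on either side of the limit, the 5 with the smallest p per direction in the other contrasts, and a parent gene beside its copy; those added afterwards are marked. Transcripts of GENCODE M21 were aligned with BLAST 2.17.0. No pair of libraries of 1 group agreed within counting noise (smallest chi-square per degree of freedom 2.43). Alternatives were other scaling, DESeq2 1.42.0, limma 3.58.1 (voom), other filters, sex as a term, the replicate number as a block, and leaving out each library.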

Additional observations from a re-analysis of the deposited data

Results flagged for a closer look

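In 16 of 244 checks of a named Gm gene in a group of 4 libraries, 1 library stood apart from the other 3 by Dixon's criterion at 95% (the gap to the nearest library over the range of the group). Chance alone flags about 1 in 20 such groups. In the PWS-IC wild types the library apart was replicate 2 for Gm2000 (333.9 CPM) and Gm1673 (356.4 CPM), replicate 3 for Gm26871 (21.8 CPM) and replicate 1 for Gm28439 (12.8 CPM). Among the PWS-IC deleted mice it was replicate 2 for Gm2000 (478.3 CPM), replicate 4 for Gm13341 (144.2 CPM) and Gm7324 (20.2 CPM), and replicate 1 for Gm15920 (7.46 CPM). In the Prepl wild types replicate 1 stood apart for Gm10925 (68.3 CPM), Gm2830 (11.3 CPM) and Gm10704 (5.53 CPM, with 3.45 CPM the highest of the others), and replicate 4, the male of that group, for Gm6166 (50.3 CPM) and Gm14776 (8.76 CPM). In the Prepl knockouts it was replicate 1 for Gm15427 (189.1 CPM) and replicate 4 for Gm15773 (56.8 CPM) and Gm15920 (60.4 CPM).

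In 6 members the effects of the models differed by the test of the difference itself (PWS-IC effect minus Prepl effect, log2, edgeR): Gm6368 at 0.71, Gm15427 at -0.61, Gm28439 at -1.16, Gm13339 at -1.45, Gm29216 at -1.55 and Gm10039 at -1.67.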

How the results depend on the processing

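No named member changed direction among those called, under any of the alternatives run. Counts of called members moved by more than 1.5 times as follows. In the Prepl comparison 2 members were called, beside 36 calls over all genes (in brackets from here on). There were 13 (156) with no filter on low counts and 0 (18) in 1 fit of all 16 libraries. With sex as a term there was 1 (6), which was neither of the 2. In the PWS-IC comparison the 16 calls (616) became 25 (945) with no filter, 25 (999) in 1 fit of all libraries and 29 (1119) with sex as a term. All 16 remained each time. For the difference of effects the 6 calls (112) became 2 (169) with DESeq2, 2 (108) with limma voom and 14 (222) with no filter. Where the causes lie was not tested. A limit of 10 CPM kept 172 of the 287 members.

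Leaving out 1 library at a time gave 1 to 10 calls in the Prepl comparison. These were 10 (103 over all genes) on omitting wild type replicate 1, 5 (51) on omitting wild type replicate 4 and 1 (16) on omitting knockout replicate 2. The PWS-IC comparison gave 11 (362) to 19 (653). For the difference of effects there were 2 to 9, with 3 (79) without knockout replicate 2 and 2 (94) without PWS-IC wild type replicate 4. Between the wild types there were 72 (2825) to 91 (3556). Calls kept in every such fit were 1 of 2 (Gm28661), 10 of 16, 2 of 6 and 55 of 89.

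Libraries with the same replicate number did not deviate together in the Prepl model, and in the PWS-IC model 3 of 4 pairs had a correlation over 0.1 and the pair of replicate 1 did not, so the numbers were not taken to pair the libraries. Correlations ran from -0.0689 to 0.0686 in the Prepl model and from -0.0035 to 0.2673 in the PWS-IC model, and the best match was the same number for 2 of 4 and 1 of 4 numbers. With the replicate number as a block the calls were 3 (35 over all genes) in the Prepl comparison, 24 (989) in the PWS-IC comparison and 9 (148) for the difference. In both PWS-IC groups replicates 1 and 2 were male and replicates 3 and 4 female. Correlations by number and the block therefore also carry sex there, and the 2 cannot be told apart. No paired analysis was possible for the wild types, whose numbers belong to separate models. At these depths a member near 5 CPM rests on few reads per library.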
